A study of Mus musculus with 16 samples.

Results

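The miRNAs miR-146a, miR-146b and miR-155 (mmu-miR-146a, mmu-miR-146b and mmu-miR-155 on the array) were followed in mouse dorsal skin with and without the nuclear receptor PPARβ/δ and with and without chronic UVB. They were chosen by name, as miRNAs that NF-kB signalling induces, and are 3 of the 577 miRNAs on the array. The 16 arrays fell into 4 groups of 4: Ppard+/+ (WT) and Ppard-/- (KO) skin without UV, and WT and KO skin after 12 weeks of UVB at 70 mJ/cm2, given 3 times a week. All groups were on the mixed SKH1-C57/Bl6-SV129 background. Per the methods the animals were hairless females, 8 to 12 weeks old, the genotypes were littermates, the irradiated skin was free of lesions, and control mice of matched age were handled without irradiation. Whether that age is the one at the start of UVB or at sampling is not stated. The comparisons ask which of these miRNAs differ with UV, and whether that depends on PPARβ/δ.

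MiR-146a and miR-146b are transcribed from separate genes after Toll-like receptor or cytokine signalling activates NF-kB, and both repress the adaptor proteins IRAK1 and TRAF6, which closes a negative feedback loop on the same pathway. MiR-155 is made from a long non-coding host transcript in activated macrophages, dendritic cells and lymphocytes, and represses inhibitors of cytokine signalling such as SOCS1 and SHIP1. In skin these miRNAs are known from inflammatory disease, in both keratinocytes and infiltrating leukocytes.

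The mature sequences are shown because the seed (bases 2 to 8, in capitals), which pairs with target mRNAs, is shared by the miR-146 pair and not by miR-155 (RefSeq, GRCm38.p6, 5′ to 3′).
mmu-miR-146a-5p: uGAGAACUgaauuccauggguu
mmu-miR-146b-5p: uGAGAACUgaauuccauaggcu
mmu-miR-155-5p: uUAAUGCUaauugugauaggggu
Counted from the 5′ end, miR-146a and miR-146b differ at 2 of their 22 bases, G18A and U21C (the miR-146a base is given before the position). Their seed was found in these 2 of the 1679 mature mouse miRNAs in the table, and the seed of miR-155 in 1. The array reads each with 2 probes that end at the same 3′ base and differ by 1 base in length. On mm9 the longer probes cover chromosome 11, 43187937 to 43187955, for miR-146a, chromosome 19, 46417283 to 46417301, for miR-146b, and chromosome 16, 84714393 to 84714410, for miR-155, so both differing bases of the miR-146 pair lie inside its probes. In the RefSeq table Mir155 overlaps the lncRNA gene Mir155hg and Mir146b overlaps the lncRNA gene Gm36493 (strand was not compared). Mir146, the gene of miR-146a, overlaps no other listed gene.

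Summed over miRNAs, an array gave 1.71e+05 to 3.95e+05 units of scanner intensity, and 184 to 266 miRNAs were detected. Each slide held 1 UV state, so UV and slide cannot be told apart. The slide of the irradiated arrays had a local background of 119 to 130 units, against 63.3 to 65.8 on the other. The SD of its negative controls was 9.10 to 10.3 units, against 3.66 to 4.25. Every irradiated array detected fewer miRNAs (195 to 206 in WT, 184 to 194 in KO) than every other array (216 to 246 and 232 to 266). Summed signals were 2.01e+05 to 2.31e+05 in KO UV and 2.55e+05 to 3.95e+05 in KO no UV. In WT they overlapped, at 2.23e+05 to 3.13e+05 and 1.71e+05 to 2.66e+05. After UV the WT arrays filled 1 row of the slide and the KO arrays the other, so genotype and row cannot be told apart there. Keratinocyte miRNAs (7 of 7 measured) and leukocyte miRNAs (5 of 5) were detected on all 16 arrays, as were 4 of 4 skeletal muscle miRNAs. The arrays hold miRNA probes and give no check of the Ppard genotype.

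All 3 miRNAs were detected on 16 of 16 arrays, and each signal was also above 3 times its own scanner error. MiR-146a ranked 47 to 74 from the brightest of the 577 miRNAs, miR-146b 54 to 79, and miR-155 130 to 170. The scanner error was 8.18 to 8.82% of the signal for miR-146a, 8.17 to 8.57% for miR-146b and 9.22 to 16.0% for miR-155. Neither a single saturated spot nor more than 8 outlier spots occurred among the 60 member spots of an array. The other strand of the miR-146b hairpin, mmu-miR-146b*, was detected on 0 of 16 arrays, with signals of -7.76 to -0.26 units.

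Levels are given below as log2 of the quantile-normalized signal, a scale on which 1 unit is a doubling. Quantile normalization gives every array the same set of values by rank, so arrays where a miRNA holds the same rank have the same level.

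The mean of mmu-miR-146a was highest in non-irradiated WT skin. The WT no UV arrays read 10.09, 9.60, 9.65 and 9.98, with a mean of 9.83 ± 0.24 (SD, n = 4). The KO no UV arrays read 9.36, 9.80, 9.22 and 9.27 (9.41 ± 0.27). Within the non-irradiated skin, 3 of 4 KO arrays lay under every WT array and KO replicate 2 lay among them. The WT UV arrays read 9.36, 9.36, 9.39 and 9.43 (9.38 ± 0.03), ranks 63 to 65 from the brightest. The KO UV arrays read 8.91, 9.36, 9.27 and 9.22 (9.19 ± 0.19). The group means thus came in the order of WT then KO without UV, followed by WT then KO after UV. Each neighbouring pair overlapped, WT UV and KO UV only by a tie at 9.36.

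MiR-146a fell with UV in WT skin. The difference was -0.45 (SE 0.14, 95% confidence interval -0.75 to -0.14), or 1.36-fold lower, with a limma adjusted p of 0.0468 over the 228 miRNAs tested. All 4 irradiated WT arrays lay under all 4 non-irradiated ones, and the exact permutation p was 0.0286, the smallest that 4 against 4 arrays can give. MiR-146a was the 1 member of 3 called in this contrast, in which 16.2% of all tested miRNAs were called, 7.02% lower and 9.21% higher. The groups did not overlap for 21.5% of the tested miRNAs, 7.89% lower and 13.6% higher with UV. The call was narrow: it was kept when 5 of the 16 arrays were left out in turn, and the adjusted p reached 0.108 without WT no UV replicate 4 and 0.105 without WT no UV replicate 1. It was also lost without any 1 of the WT UV arrays, without KO UV replicate 2, 3 or 4, and without KO no UV replicate 1 or 3. Its 2 probes taken alone gave -0.39 and -0.47, with adjusted p of 0.0821 and 0.102 over 559 probes. With no normalization between arrays the difference was -0.05, beside a median of 0.21 for all tested miRNAs. With the normexp background model it was 0.49, and neither was called.

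In KO skin the UV difference of miR-146a was -0.22 (95% confidence interval -0.53 to 0.08, adjusted p = 0.263). The difference between the UV effects in WT and KO was -0.22 (-0.65 to 0.21, adjusted p = 0.725), so the 2 genotypes were not shown to differ in it. Without KO no UV replicate 2 the difference in KO was -0.089 and that between the UV effects was -0.37. Without KO UV replicate 1 the difference in KO was -0.13, and without WT no UV replicate 1 that between the UV effects was -0.13.

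The signal of mmu-miR-146b, which shares the seed of miR-146a, had a higher mean on the irradiated arrays. The non-irradiated groups read 8.67, 8.97, 9.01 and 9.05 in WT (8.92 ± 0.17, SD, n = 4) and 8.78, 8.88, 8.72 and 9.11 in KO (8.87 ± 0.17). Their ranges overlapped almost fully. The WT UV arrays read 9.39, 9.22, 8.91 and 9.85, and spread the most of any group (9.34 ± 0.39). The KO UV arrays read 9.65, 9.54, 9.49 and 9.65 (9.58 ± 0.08). From the lowest group mean to the highest the order was KO no UV, WT no UV, WT UV and KO UV, and neighbours in it overlapped. The gap between WT UV and KO UV was smaller than the SD of the WT UV arrays.

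MiR-146b rose with UV in KO skin. The difference was 0.71 (SE 0.16, 95% confidence interval 0.37 to 1.06), or 1.64-fold higher, with an adjusted p of 0.00922, and all 4 KO UV arrays lay above all 4 KO no UV arrays (exact permutation p = 0.0286, the smallest possible). In this contrast 29.8% of the tested miRNAs were called, 18.4% higher and 11.4% lower, and for 20.2% the groups did not overlap, 11.8% higher and 8.33% lower. The call was kept whichever of the 16 arrays was left out, with adjusted p of 0.00203 to 0.0307. Its 2 probes taken alone gave 0.67 and 0.69, with adjusted p of 0.00647 and 0.0138. With no normalization the difference in KO was 0.22 and not called, beside a median of -0.48 for all tested miRNAs. In WT skin the difference was 0.42 (0.07 to 0.77), with an adjusted p of 0.0853, and 3 of 4 irradiated arrays lay above every non-irradiated one. WT UV replicate 3 was the exception, and without it the difference in WT was 0.56 with an adjusted p of 0.0188. Without WT UV replicate 4, the highest, it was 0.25 with an adjusted p of 0.198. The UV effects in WT and KO differed by -0.29 (-0.78 to 0.20, adjusted p = 0.674), by -0.15 without WT UV replicate 3 and by -0.46 without WT UV replicate 4.

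The signal of mmu-miR-155, which had the largest scanner error relative to its signal, had its lowest mean in non-irradiated KO skin. The WT no UV arrays read 6.43, 5.62, 6.33 and 6.30 (6.17 ± 0.37, SD, n = 4), with replicate 2 far under the rest. The KO no UV arrays read 5.31, 5.91, 5.51 and 5.79 (5.63 ± 0.27). The WT UV arrays read 6.58, 6.17, 6.40 and 5.91 (6.26 ± 0.29). The KO UV arrays read 6.36, 6.23, 6.56 and 5.99 (6.28 ± 0.24), a range that lay inside that of the WT UV arrays. From lowest to highest the order was KO no UV, WT no UV, WT UV and KO UV, and the last 3 means differed by less than the SD of any of them.

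MiR-155 rose with UV in KO skin. The difference was 0.65 (SE 0.20, 95% confidence interval 0.21 to 1.09), or 1.57-fold higher, with an adjusted p of 0.0319, and all 4 KO UV arrays lay above all 4 KO no UV arrays (exact permutation p = 0.0286). With miR-146b, 2 of the 3 members were thus called in this contrast, both higher, against the 18.4% of all tested miRNAs called higher. The miR-155 call was lost without KO UV replicate 1, 2 or 3 and without KO no UV replicate 1 or 3, with adjusted p up to 0.0920. Its 2 probes taken alone gave 0.53 and 0.61, with adjusted p of 0.0407 and 0.0598. With no normalization the difference was -0.0059, beside a median of -0.48 for all tested miRNAs, and with normexp it was 0.05. In WT skin the difference was 0.09 (-0.35 to 0.53, adjusted p = 0.791), and it turned to -0.09 without WT no UV replicate 2 and to -0.01 without WT UV replicate 1. The UV effects in WT and KO differed by -0.56 (-1.18 to 0.06), with an adjusted p of 0.497 over all miRNAs and a permutation p of 0.104, so a difference between the genotypes was not shown.

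**Figure D1:**
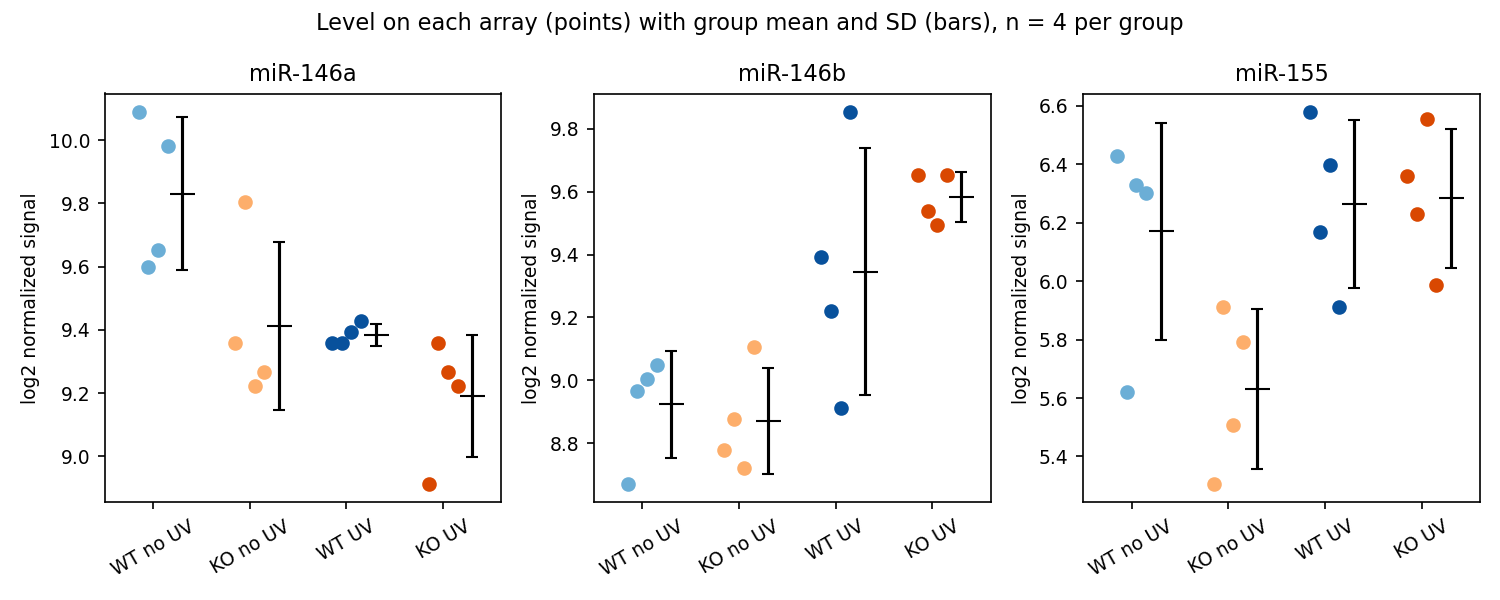
The log2 normalized signal of miR-146a, miR-146b and miR-155 on each of the 16 arrays (points, spread sideways by replicate number), with the mean and SD of each group of 4 (bars); each panel has its own axis, since each miRNA has its own probes. The mean of miR-146a is highest in WT no UV (arrays at 9.60 to 10.09), and that of miR-155 is lowest in KO no UV (arrays at 5.31 to 5.91). Both ranges overlap those of other groups. MiR-146b is higher in KO UV (9.49 to 9.65) than in KO no UV (8.72 to 9.11).

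Without UV, miR-146a and miR-155 were lower in KO than in WT by values that did not pass the adjusted test. The difference was -0.42 for miR-146a (95% confidence interval -0.72 to -0.11, adjusted p = 0.161, exact permutation p = 0.0857). For miR-155 it was -0.54 (-0.98 to -0.10, adjusted p = 0.203, exact permutation p = 0.0857). For miR-146b it was -0.05 (-0.40 to 0.29, adjusted p = 1). Thus 0 of 3 members were called by limma here, where limma called 0% of the 228 and gave 36 of them an unadjusted p under 0.05. The unadjusted p of miR-146a was 0.0111 and that of miR-155 was 0.0199. The genotypes overlapped for all 3 members, and did not for 2.63% of the tested miRNAs (1.32% higher and 1.32% lower in KO). Both genotypes lay in both rows of this slide, so each difference within a row rests on 2 KO and 2 WT arrays. Within row 1 the differences were -0.26, 0.01 and -0.42 for miR-146a, miR-146b and miR-155, and within row 2 they were -0.57, -0.12 and -0.67. Without WT no UV replicate 2, the low array of miR-155, that difference was -0.72 with an adjusted p of 0.0298.

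After UV, 0 of 3 members were called by limma between the genotypes, where 2.19% of the tested miRNAs were called (all of them lower in KO), and none of the members had an unadjusted p under 0.05. KO minus WT was -0.19 for miR-146a (-0.50 to 0.11, adjusted p = 0.808), and -0.10 without KO UV replicate 1. For miR-146a 3 of 4 KO arrays lay under every WT array. KO UV replicate 2 tied with the lowest WT arrays at 9.36, so the groups overlapped only by that tie. The groups did not overlap for 6.14% of the tested miRNAs, 4.82% lower and 1.32% higher in KO. KO minus WT was 0.24 for miR-146b (-0.11 to 0.59, adjusted p = 0.765), 0.093 without WT UV replicate 3 and 0.41 without WT UV replicate 4. For miR-155 it was 0.02 (-0.42 to 0.46, adjusted p = 1), and its sign changed under 6 of 18 processing alternatives. In the contrast of the UV effects, 0 of 3 members were called by limma, 2.19% of the tested miRNAs were (1.75% higher and 0.439% lower), and no member had an unadjusted p under 0.05.

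**Figure D2:**
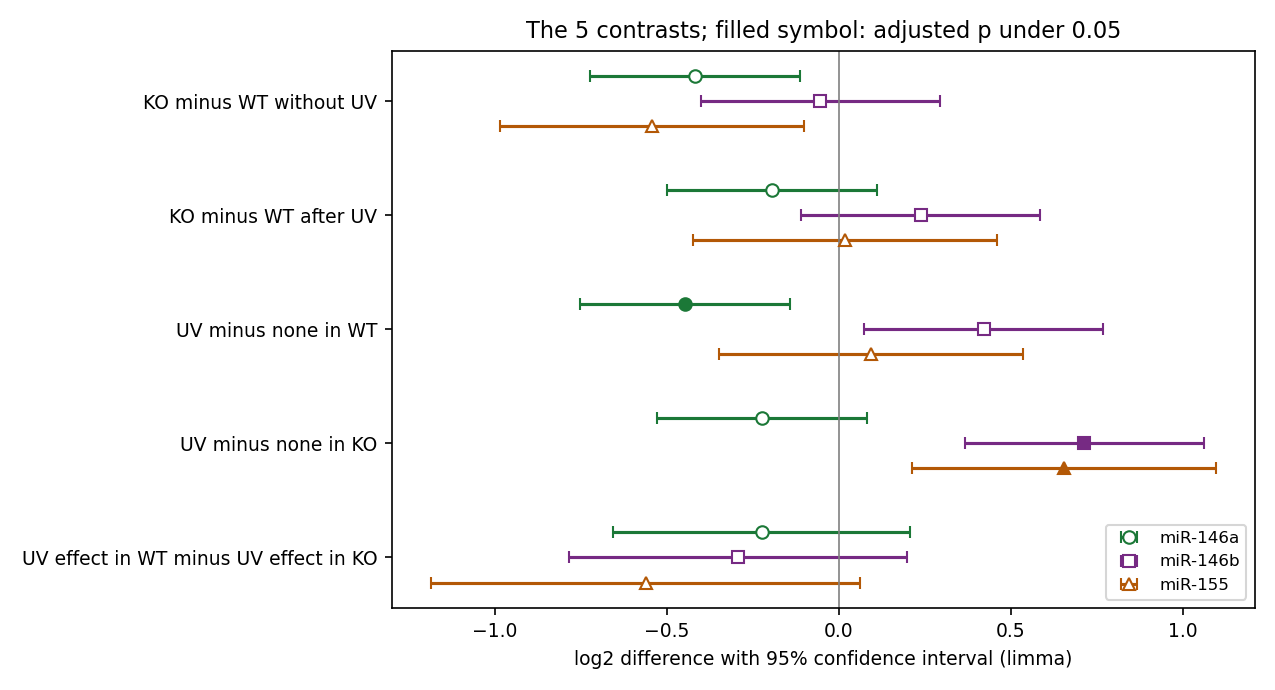
The log2 difference of miR-146a, miR-146b and miR-155 in the 5 contrasts, with 95% confidence intervals from limma; filled symbols have an adjusted p under 0.05. MiR-146a is filled for UV in WT (-0.45), and miR-146b (0.71) and miR-155 (0.65) are filled for UV in KO; no member is filled in the other 3 contrasts.

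The UV differences of the miR-146 pair had opposite signs in both genotypes, except with normexp in WT, where both were positive (0.49 for miR-146a and 0.84 for miR-146b). In the ratio of their signals on the same array a single scaling factor per array cancels, although a normalization by rank or another background model can still move it. This measure was chosen after the values had been seen. Because the probes differ, its absolute size has no meaning, and how far a probe binds the other miRNA of the pair was not tested. The log2 ratio of miR-146a to miR-146b was 1.39, 0.47, 0.58 and 0.82 on the WT no UV arrays (0.82 ± 0.41, SD, n = 4). On the KO no UV arrays it was 0.46, 0.91, 0.50 and 0.25 (0.53 ± 0.27). On the WT UV arrays it was -0.13, 0.30, 0.52 and -0.49 (0.05 ± 0.45), and 1 of these 4 lay among the non-irradiated WT arrays. On the KO UV arrays it was -0.76, -0.39, -0.25 and -0.34 (-0.43 ± 0.22), under each of the non-irradiated arrays.

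The difference in this log2 ratio, UV minus none, was -0.96 in KO (exact permutation p = 0.0286, the smallest possible) and -0.77 in WT (exact permutation p = 0.0571). Adjusted over the 5 contrasts, both p were 0.143, so neither passed. A contrast at the smallest possible p cannot pass this adjustment by itself, so the design largely set that outcome and it decides little. The 4 pairings of 1 miR-146a probe with 1 miR-146b probe gave -1.18 to -0.76 in KO and -0.94 to -0.63 in WT. Leaving out any 1 array gave -1.06 to -0.84 in KO and -0.92 to -0.57 in WT. The values of the authors' table gave -0.84 in KO and -0.78 in WT. The KO minus WT difference was -0.29 without UV (exact permutation p = 0.343) and -0.48 after it (exact permutation p = 0.143), and the UV effects differed by 0.20 (permutation p = 0.633). Single arrays moved these further: the first was -0.093 without WT no UV replicate 1, and the last ran from 0.039 without WT UV replicate 3 to 0.39 without WT no UV replicate 1 and was 0.065 in the authors' table.

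**Figure D3:**
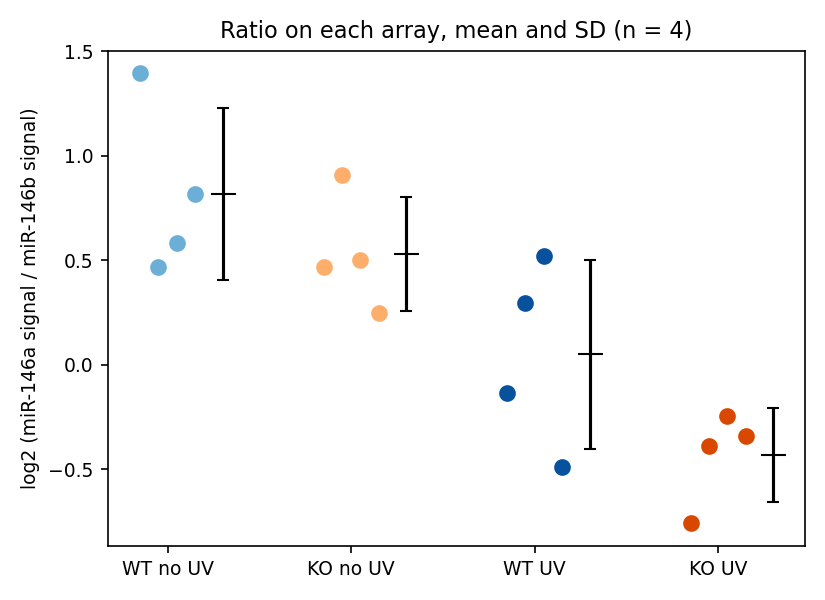
The log2 ratio of the miR-146a signal to the miR-146b signal on each of the 16 arrays (points, from signals with no normalization between arrays), with the mean and SD of each group of 4 (bars). The KO UV arrays (-0.76 to -0.25) lie under all KO no UV arrays (0.25 to 0.91), and the WT UV arrays (-0.49 to 0.52) lie mostly under the WT no UV arrays (0.47 to 1.39).

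Other miRNAs known to act in Toll-like receptor or NF-kB signalling moved in both directions with UV in WT skin. Of 8 listed, 5 were tested, and miR-9 and miR-147 were detected on 0 of 16 arrays and miR-132 on 1. In WT, 1 of the 5 rose, 2 fell and 2 did not pass, with a median difference of -0.16 beside 0 for all tested miRNAs, of which 9.21% rose and 7.02% fell. MiR-221 and miR-222, a clustered pair that targets the cell cycle inhibitor p27, fell by 1.32 (adjusted p = 0.00023) and by 1.30 (adjusted p = 0.000599) on the log2 scale. MiR-301a, an activator of NF-kB through repression of Nkrf, rose by 0.85 (adjusted p = 0.027). With the normexp background model, which left 3 arrays far brighter than the rest, miR-221 differed by 0.01, miR-222 by -0.40 and miR-301a by 0.10. In KO, 1 of the 5 rose, 0 fell and 4 did not pass, with a median of 0.14 beside 0 for all tested miRNAs, of which 18.4% rose and 11.4% fell.

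MiR-21, an abundant miRNA induced in inflamed and proliferating skin, rose in KO by 0.68 (adjusted p = 0.0173), as miR-146b and miR-155 did, and differed by 0.18 in WT (adjusted p = 0.545). It ranked 1 to 3 from the brightest, so normalization left it 3 possible levels and 10 of 16 arrays shared 1 of them. The skeletal muscle miRNA miR-1 held the highest level, 14.59, on every KO no UV array, where miR-21 read 13.58 to 13.88. In KO UV miR-1 read 13.44 to 13.88 and miR-21 read 13.88 to 14.59. Without normalization the miR-21 difference in KO was 0.17 (adjusted p = 0.544), beside a median of -0.48 for all tested miRNAs. Without UV its KO minus WT difference was -0.68 (adjusted p = 0.0635). MiR-125a-5p differed by -0.16 in WT (adjusted p = 0.488) and by 0.14 in KO (adjusted p = 0.454). In each of the other 3 contrasts 0 of the 5 were called by limma. It called 0% of all tested miRNAs for KO minus WT without UV, 2.19% after UV and 2.19% for the UV effects. The list medians in these contrasts were -0.65, 0.17 and -0.50, beside 0, 0 and -0.0027 for all tested miRNAs. The 0 called without UV depended on the fit. When 11 miRNAs with 1 constant level on all 16 arrays were left out, miR-21 and miR-221 were called lower in KO (both limma adjusted p = 0.0405).

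No leukocyte miRNA was called higher with UV. Of the 5 listed and tested, 2 fell in WT and 1 in KO, with medians of -0.61 and -0.29 beside 0 for all tested miRNAs. Of all tested miRNAs 9.21% were called higher and 7.02% lower in WT, and 18.4% and 11.4% in KO, so 0 of 5 higher does not set the list apart. MiR-150, a miRNA of mature lymphocytes, fell by 1.05 in WT (adjusted p = 0.000329) and by 0.56 in KO (adjusted p = 0.0169). MiR-342-3p, another lymphocyte miRNA, fell by 1.39 in WT (adjusted p = 0.00383) and differed by -0.05 with normexp. MiR-223, the defining miRNA of neutrophils and other myeloid cells, differed by -0.15 in WT (adjusted p = 0.535) and by -0.12 in KO (adjusted p = 0.559). MiR-142-3p and miR-142-5p, the arms of a hairpin of blood cells, differed by -0.15 and -0.61 in WT (adjusted p = 0.731 and 0.262) and by -0.04 and -0.54 in KO (adjusted p = 0.982 and 0.284). The summed normalized signal of the 5 was 4501 to 5929 units in WT and 2737 to 4472 in KO without UV, and 3395 to 4238 in WT and 2920.5 to 3442 in KO after it. Like the mean of miR-146a, it was highest in non-irradiated WT skin. Without UV the KO minus WT differences of the 5 ran from -1.18 to -0.23. Their median was -0.33 beside 0 for all tested miRNAs, and limma called 0 of them there and 0% of all tested. In whole skin, fewer cells of a type and less RNA per cell cannot be told apart, and the part of the leukocyte miRNAs in the miR-146a difference was not tested.

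Muscle and keratinocyte miRNAs also moved in KO, where miR-146b and miR-155 rose. Skeletal muscle miRNAs fell with UV in KO (4 of 4 called, against 11.4% of all tested miRNAs called lower, median -1.04), and their summed signal was 40655 to 50330.1 units in KO no UV against 19464 to 24489 in KO UV. It was 20453 to 41168 in WT no UV and 21899 to 25985 in WT UV, where 0 of 4 were called by limma. Keratinocyte miRNAs rose in KO (6 of 7 called, against 18.4% of all tested miRNAs, median 0.39) and in WT (4 of 7, against 9.21%, median 0.44), with sums of 22225 to 27764 in KO no UV and 29319.7 to 43027 in KO UV. Sums in WT were 21539 to 25477 without UV and 26081 to 31708 after it. Without normalization the median UV difference of all tested miRNAs in KO was itself -0.48. There the 6 keratinocyte miRNAs called in KO gave -0.26 to 0.29, 1 of them positive, and the 4 muscle miRNAs gave -1.92 to -1.34. The part of either in the member differences was not tested.

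**Figure D4:**
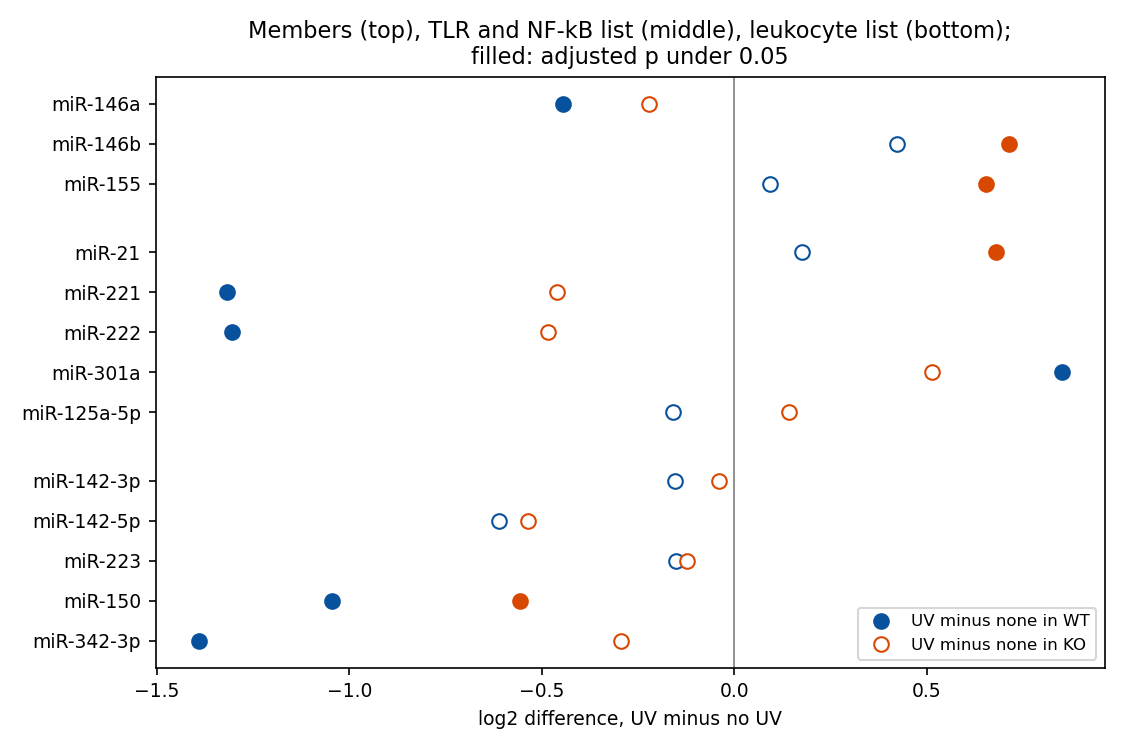
The log2 difference between irradiated and non-irradiated skin in WT and in KO for the 3 members (top rows), the 5 tested miRNAs of the TLR and NF-kB list (middle rows) and the 5 of the leukocyte list (bottom rows); filled symbols have an adjusted p under 0.05. MiR-221 (-1.32), miR-222 (-1.30) and miR-342-3p (-1.39) lie farthest to the left in WT, and miR-21 (0.68) lies beside miR-146b (0.71) and miR-155 (0.65) in KO.

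The miRNAs whose levels followed each member most closely were looked up among the 166 others detected on all 16 arrays, as a description, since the arrays share 2 slides and 4 groups. For miR-146a they were miR-342-3p, miR-222 and miR-221, with Pearson's r of 0.80, 0.78 and 0.75, against a median of -0.02 over all 166. By Spearman's rho the closest was miR-23a (0.65), and on deviations from the group means it was miR-31* (0.65). For miR-146b they were miR-203*, miR-183 and miR-20b, with r of 0.88, 0.80 and 0.80 against a median of 0.01. MiR-203 and miR-183 are epithelial miRNAs, and miR-20b belongs to a paralogue of the miR-17 cluster. The closest by rho was miR-106b (0.86), and on deviations miR-93 (0.71), which lie together in 1 further cluster of that family. For miR-155 they were miR-21, miR-214 and miR-34a, with r of 0.88, 0.79 and 0.79 against a median of 0.11. MiR-21 was also the closest by rho (0.83) and on deviations from the group means (0.78), but its 3 possible levels, 1 of them shared by 10 of 16 arrays, limit what such a value describes. Between the members themselves r was -0.53 for miR-146a and miR-146b, 0.13 for miR-146a and miR-155 and 0.33 for miR-146b and miR-155 over the 16 arrays, and on deviations from the group means it was -0.14, 0.38 and -0.26.

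**Figure D5:**
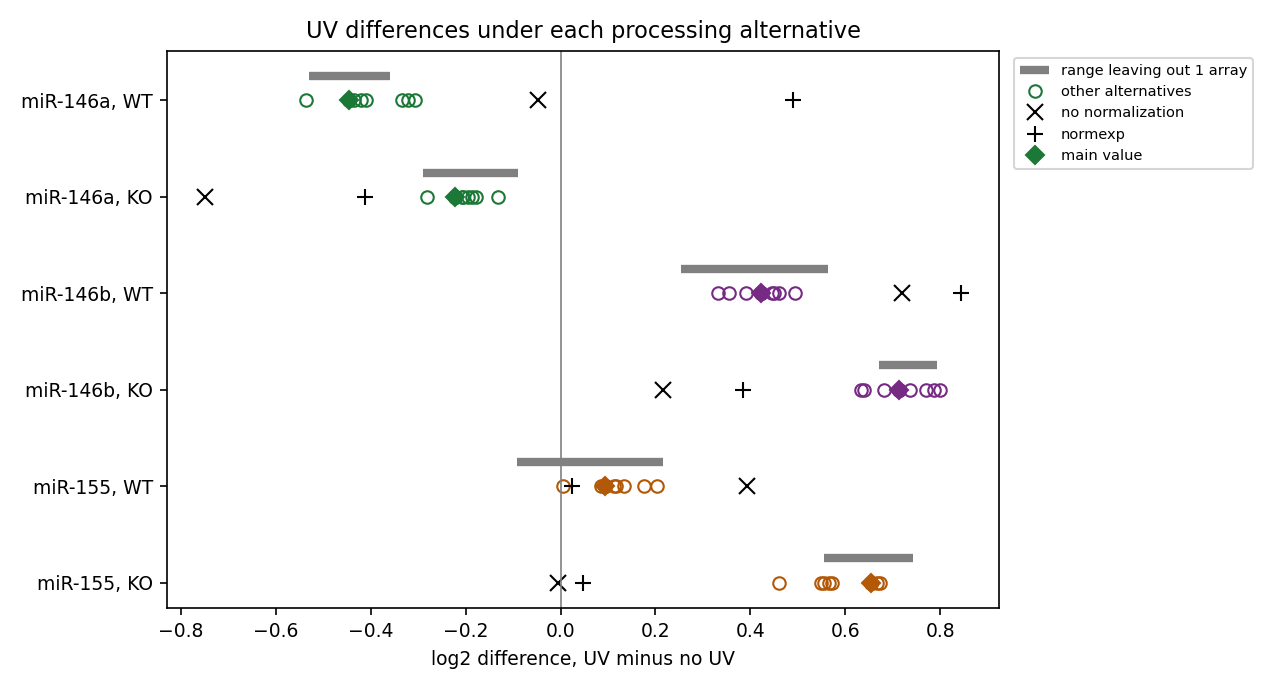
The log2 UV difference of each member in WT and KO as reported (diamonds), under the other processing alternatives (circles, crosses and plus signs) and over the range from leaving out 1 array at a time (grey bars). For miR-146b the values lie right of 0 throughout (0.22 to 0.84), whereas for miR-146a in WT they run from -0.54 to 0.49 and for miR-155 in KO from -0.01 to 0.74, with the values nearest 0 or past it from signals without normalization or with the normexp background model.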

How the data were processed

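RNA of 16 dorsal skin samples was hybridised to 1-colour Agilent mouse miRNA arrays (design 19119), read with Agilent Feature Extraction 9.5.3.1 per the file headers, which use mm9. The deposited scanner files hold linear intensity values, background-subtracted and summed per miRNA by that software. The authors' own log2 values, deposited as 1 table and normalized by an invariant procedure and by quantiles per the methods, served as an alternative. Groups and replicate numbers came from the sample titles. The methods describe 4 animals per group, but nothing says whether an array held 1 animal or what same-numbered arrays share, so p-values measure the spread between these samples. The number of arrays limits the precision.

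Total gene signals were quantile normalized (limma 3.58.1, R 4.3.3), floored at 19.4 units (the 5th percentile of the detected miRNAs on an array, median of the 16), and log2 was taken. The 228 miRNAs that every array of some group detected entered a group-means fit of all 16 arrays (lmFit, eBayes) with Benjamini-Hochberg adjustment, called at an adjusted p under 0.05. Of the 228, 11 were at the floor on all arrays. Exact two-sided permutation tests used 4 against 4 arrays, or 4900 permutations for the UV effects. Alternatives changed normalization, signal, filter, floor, block, arrays in the fit, moderation, slide row, threshold and test. The fit was tested on simulated data. Members, lists and alternatives were chosen with earlier results of these data known. Named are the 3 members in every contrast, the 3 miRNAs with the highest Pearson correlation with each, and the called miRNAs of the TLR and NF-kB and leukocyte lists. The tested miRNAs of those lists that were not called (miR-125a-5p, miR-223, miR-142-3p and miR-142-5p) were added after their values were seen. So was miR-1 of the skeletal muscle list. The erythrocyte list (miR-451, miR-144 and miR-486) had 0 of 2 tested called in WT and 1 lower in KO with UV. The fibroblast and vessel list had 1 of 4 higher and 1 lower in WT, and 1 higher and 2 lower in KO. Of all tested miRNAs 9.21% were called higher and 7.02% lower in WT, and 18.4% and 11.4% in KO.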

Additional observations from a re-analysis of the deposited data

Results flagged for a closer look

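MiR-155 on WT no UV replicate 2 read 5.62 on the log2 scale, far from the other 3 arrays of its group. The gap to the nearest of them was 0.844 of the group's range, above Dixon's 95% critical value for 4 samples. It was the 1 such value among the 16 sets of 4 arrays tested (the 3 members and the miR-146 ratio in each group), and chance flags about 1 in 20 such sets.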

How the results depend on the processing

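For the log2 differences of the 3 members in 5 contrasts, 18 alternatives were run beside leaving out each array (17 for the difference of the UV effects, which the 8-array fit cannot give). MiR-146b with UV in KO lost its call without normalization (0.22), with normexp (0.39) and at the methods' threshold read as an adjusted p under 0.001 and 1.5-fold (0.71). The methods adjust p-values but do not say which p the threshold takes, and with the unadjusted p of 0.000687 miR-146b passes it. MiR-146a with UV in WT lost its call under scaling to the 75th percentile of miRNAs detected on all arrays (-0.43, adjusted p = 0.0914) or of all miRNAs (-0.31), an invariant set (-0.32), quantiles within each slide (-0.33, chosen after seeing the data), no normalization (-0.047), processed spot signals (-0.41), and, at -0.45, with the 8 arrays compared, the replicate block and the methods' threshold. With normexp it was 0.49. MiR-155 with UV in KO lost its call under the 75th percentile of miRNAs detected on all arrays (0.46), the invariant set (0.55), normexp (0.046), the slide row (0.57), and, at 0.65, with the 8 arrays and the methods' threshold, and was -0.0059 without normalization. MiR-146a with UV in KO gained a call without normalization (-0.75).

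Without normalization the median of all tested miRNAs itself moved by 0.52, -0.25, 0.21, -0.48 and 0.77 over the 5 contrasts (KO minus WT without and after UV, UV in WT and KO, and the difference of UV effects). Signs changed there for KO minus WT without UV (0.18, 0.46 and 0.10 for miR-146a, miR-146b and miR-155), for KO minus WT after UV (-0.041 for miR-146b, -0.30 for miR-155) and for the difference of UV effects (0.70, 0.50 and 0.40). Normexp left 3 arrays, KO UV replicate 1 and WT no UV replicates 2 and 3, with median signals of 1319 to 3654 units against 264 to 526 on the other 13, and changed the sign of KO minus WT without UV (0.49 for miR-146a, 0.57 for miR-146b) and of the difference of UV effects (0.90 and 0.46). KO minus WT after UV of miR-155 was also negative under the 75th percentile of all miRNAs (-0.022), the invariant set (-0.017), normexp (-0.0072), processed spot signals (-0.056) and the slide row (-0.15).

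Leaving out 1 array gave -0.53 to -0.36 for miR-146a with UV in WT, 0.25 to 0.56 for miR-146b with UV in WT, -0.14 to 0.0020 for miR-146b in KO minus WT without UV (above 0 without KO no UV replicate 3), -0.72 to -0.44 for miR-155 in the same contrast, -0.10 to 0.12 for miR-155 in KO minus WT after UV (below 0 without WT UV replicate 2 or 4 or KO UV replicate 1 or 3), -0.091 to 0.22 for miR-155 with UV in WT and 0.55 to 0.74 with UV in KO.

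Deviations of same-numbered arrays correlated at -0.35 to 0.38 (median 0.16), and those of differently numbered arrays at -0.62 to 0.75 (median -0.05). The numbers were not taken as pairs, because the labels do not say that they pair arrays. With the replicate block the adjusted p of miR-146a with UV in WT was 0.0741, and no other member call changed. Without the 11 miRNAs at the floor (chosen after seeing the data) no member call changed. In KO against WT without UV that fit called 10 miRNAs instead of 0, miR-21, miR-221 and miR-342-3p among them. Over all alternatives that count ran from 0 to 111, against 0 to 6 for KO against WT after UV (5 as reported), 4 to 58 for UV in WT (37), 3 to 130 for UV in KO (68) and 0 to 138 for the difference of UV effects (5), and leaving out 1 array gave 0 to 16, 5 to 7, 30 to 43, 35 to 70 and 1 to 12. The 16 came without WT no UV replicate 2, which also gave the 12, and the 35 without KO no UV replicate 3.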
